A study of Mus musculus with 21 samples.

Results

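The control small intestine of fetal mice at E18.5, a stage shortly before birth, is described here from the 11 arrays titled Prdm1+/+, which are 11 of the 21 arrays of the series. Each array was chosen by its title alone, and each is labelled as a biological replicate. By the labels these control embryos carried 1 CA allele of Prdm1, a conditional allele, and 1 wild-type allele, so no control was free of the CA allele. The Villin-Cre transgene, driven in intestinal epithelium, is named in the genotype of the mutants and not in that of these controls. They came from matings of Villin-Cre;Prdm1BEH/+ males with Prdm1CA/CA females that also carried the R26R reporter. The strain is labelled as mixed, and the litter and sex of the embryos are not labelled. Prdm1 encodes Blimp1, a repressor of transcription in fetal enterocytes, and its 2 probes were detected on 0 of the 11 arrays. Total RNA of the small intestine of each embryo was read on 1 Illumina WG6_V2 bead array. No genotypes are compared, so every value below is a description of these 11 samples, without a test.

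Shortly before birth the small intestine of the mouse is lined by villi with fetal-type enterocytes. These cells take up milk protein and maternal antibody by endocytosis, digest lactose at the brush border and export lipid on apolipoprotein-coated particles, while sucrase and other adult digestive enzymes appear around weaning. Crypts and Paneth cells form after birth. Around the epithelium lie mesenchyme, smooth muscle, enteric nerves, vessels and blood.

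Levels are given as log2 intensity after background correction and quantile normalisation, and the spread of a gene as its SD over the 11 arrays on the same scale, so that an SD of 1 means a typical deviation of 2-fold. A probe counted as detected where its detection p, which ranks the probe against negative control beads, was under 0.01 on all 11 arrays. That held for 12889 of 45281 probes, or 28.5%, and for 8273 of the 19057 genes with a named probe, or 43.4%. Another 2486 genes were detected on 1 to 10 arrays and 8298 on none. Of the genes detected on all arrays, 8169 were protein coding and 59 were long noncoding RNAs. The brightness of different probes is not a ratio of transcript numbers, since probes differ in how strongly they bind.

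The arrays did not all lie equally close to each other. Between 14596 and 15942 probes were detected on an array, 15294 ± 479 (SD, n = 11), and the correlation between pairs of arrays across detected genes ran from 0.972 to 0.993. The first principal component held 32.4% of the variance and placed replicates 5, 6, 8, 10 and 11 on one side, with scores of 0.15 to 0.45, and the other 6 on the opposite side, with scores of -0.39 to -0.21. The same 5 arrays had the most detected probes, 15397 to 15942, against 14596 to 15241 on the others. The genes that weighed most on this axis were Pisd-ps3, Pank3 and 4632427E13Rik on the side of those 5 arrays, and Pigt, Ndufb10 and Tomm22 on the other. The median SD of a gene was 0.184 over all arrays, 0.136 without those 5 arrays and 0.166 without the other 6. What separates these arrays was not tested. Several genes described below divide largely along this axis, and an SD over all 11 arrays then holds the distance between the sides. For Pigt the SD was 1.15 over all arrays, 0.13 without those 5 and 0.26 without the other 6. For Cdx2 these values were 0.54, 0.11 and 0.14, for Sox9 0.52, 0.25 and 0.09, for Muc2 0.62, 0.35 and 0.30, and for Col1a1 0.32, 0.16 and 0.15. Without the 5 arrays the SD of Cdhr2 was 0.11 in place of 0.36, that of Lct 0.16 in place of 0.38, that of Ace 0.19 in place of 0.43 and that of B2m 0.15 in place of 0.29, but without the other 6 it was 0.41, 0.33, 0.64 and 0.42.

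The markers of small intestine were present, with some exceptions among single probes. Of the enterocyte markers, Vil1, the villin of the brush border core, lay at 11.25 ± 0.19, Lct, lactase, at 12.28 ± 0.38 and Apoa4 at 15.48 ± 0.05 (SD, n = 11). Cdx2, the transcription factor that sets intestinal identity, lay at 10.96 ± 0.54. The probes for Fabp1, Fabp2, Cd36 and Epcam, 1 each, were detected on 0 of 11 arrays, although their genes are known from enterocytes or, for Epcam, from epithelia in general. A probe below detection says only that this probe gave no signal above the control beads. The probe for Alb, albumin of the liver, was likewise detected on no array.

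Apoa4 and Apoa1, both apolipoproteins of the particles that carry dietary lipid, were the brightest genes, with means of 15.48 and 15.45. Rpl41, of the large ribosomal subunit, followed at 15.19, and Igf2, the imprinted fetal growth factor, at 15.10. Rplp1 lay at 14.89 and Hba-a1, the alpha chain of haemoglobin, at 14.84. Among the others of the 20 brightest were the mitochondrial cytochrome b gene CYTB, the ATP synthase subunit Atp5b, the neonatal antibody receptor Fcgrt, the apolipoprotein Apoc3, the ferritin heavy chain Fth1, the acyl-CoA synthetase Acsl5, Prap1 and the smooth muscle actin Acta2. H2ac24 and H2ac20, also among the 20, are histone genes with near-identical copies, and their probes may read several of them.

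These leading genes differed in how steady they were. Apoa4 ran from 15.39 to 15.52 with a median of 15.48, a range of 1.09-fold, and no array stood apart. Hba-a1 ran from 14.31 on replicate 10 to 15.52 on replicate 8 with a median of 14.91, a range of 2.31-fold. Igf2 lay between, from 14.87 to 15.32 with a median of 15.08. Quantile normalisation gives the brightest probe of each array the same value, so the range left to a gene at the very top is narrow by construction. The highest intensity on an array as deposited ran from 30773 to 56719.

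Gene groups of absorption and neonatal digestion held many bright members. Each group was counted by its members detected on all 11 arrays and by those among the 827 brightest genes, which are 10.0% of detected genes by construction. Of 27 genes of lipid absorption and apolipoproteins with a probe, 24 were detected and 11 were among the 827 brightest. Beside those named, Rbp2, which carries retinol in enterocytes, lay at 13.54, Dgat2, which completes triglycerides, at 12.21 and Mttp, which loads lipid onto apolipoprotein B, at 11.05. Of 22 genes of protein uptake and lysosomes, 20 were detected and 14 were among the 827 brightest. Fcgrt lay at 14.66 ± 0.27, the protease Ctsb at 13.27 ± 0.11, the sialidase Neu1 at 13.16 ± 0.15, the galactosidase Glb1 at 13.09 ± 0.15 and Amn, a part of the endocytic receptor with cubilin, at 12.89 ± 0.12 (SD, n = 11).

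Of 27 brush border genes with a probe, 21 were detected, 10 of them among the 827 brightest. Cdhr5, a cadherin that links microvilli, led at 14.47 ± 0.13 and its partner Cdhr2 lay at 12.25 ± 0.36, with the scaffold Ush1c at 12.29 ± 0.13. The peptidases Anpep and Ace lay at 11.60 ± 0.43 and 11.32 ± 0.43, and Alpi, intestinal alkaline phosphatase, at 10.46 ± 0.33. Sis, sucrase-isomaltase, was detected on all arrays but lay at 6.01 ± 0.28, rank 7517 of 8273 by brightness (SD, n = 11). Of the 13 adult-type enterocyte genes with a probe, 6 were detected, or 46.2%, close to the 43.4% of all genes, and 0 were among the 827 brightest. Beside Sis, these 6 were Reg3b at 9.33, Khk at 8.90, Gsta1 at 8.70, Aqp8 at 8.67 and Slc5a4b at 6.44. The median over all detected genes was 8.03. The probes for Arg2, Reg3g, Reg3a, Slc5a4a, Cyp3a11 and Cyp2c29 were detected on no array.

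Of 15 arginine and urea cycle genes with a probe, 12 were detected, 7 among the 827 brightest and 0 among the 827 genes with the largest spread, or 1 without replicate 1, 2, 3, 4, 5, 6, 7, 10 or 11. Oat, ornithine aminotransferase, lay at 13.98 ± 0.12, Ass1, argininosuccinate synthase, at 12.80 ± 0.23 and Cps1, carbamoyl phosphate synthetase, at 12.49 ± 0.18 (SD, n = 11). Of 22 intestinal transcription factors with a probe, 18 were detected and 5 were among the 827 brightest. Klf5 lay at 12.15, the bile acid receptor Nr1h4 at 11.72, Gata6 at 11.54 with an SD of 0.08 and Hnf4a at 10.97 with an SD of 0.09. Gata4 was detected on 10 of 11 arrays.

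Secretory cells were represented by goblet and endocrine genes. Of 15 goblet genes with a probe 10 were detected, 6 of them among the 827 brightest, led by the mucin Muc13 at 12.99, the trefoil peptide Tff3 at 12.92 and Spink4 at 12.29. Of 24 enteroendocrine genes 17 were detected, with 1 among the 827 brightest, Sct, the hormone secretin, at 13.23 ± 0.15. The hormones Ghrl, Sst, Pyy, Cck and Gcg lay from 10.58 down to 9.03. Chga, the granule protein chromogranin A, lay at 6.81 ± 0.22 (SD, n = 11). Of 9 Paneth and antimicrobial genes 4 were detected, or 44.4%, close to the 43.4% of all genes. The 4 were the defensins Defa3 at 12.68 and Defa20 at 11.89, the lysozyme Lyz1 at 10.37 and Reg3b at 9.33. Probes of defensins may read relatives.

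Of 19 stem cell and Wnt target genes with a probe 7 were detected, or 36.8%, close to the 43.4% of all genes. Sox9, a transcription factor of crypt progenitors, lay at 9.66 to 9.88 on replicates 5, 6, 8, 10 and 11 and at 8.44 to 9.08 on the other 6, the division of the first principal component. Olfm4 lay at 7.72 ± 0.50 (SD, n = 11), while Lgr5 was detected on 4 arrays and Ascl2 on 2. Of 10 tuft cell genes 1 was detected, Alox5ap at 6.69. Cell cycle genes were detected more often, 19 of 25, from Ccnd1 at 10.44 to Mcm3 at 6.05, with 0 among the 827 brightest. In bulk tissue, fewer cells of a type and less RNA per cell cannot be told apart.

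Muscle and connective tissue were well represented. Of 17 smooth muscle genes with a probe 15 were detected and 7 were among the 827 brightest, with Acta2 at 14.53 ± 0.15, the enteric actin Actg2 at 14.14 ± 0.15 and the kinase Mylk at 13.28 ± 0.10. Of 25 mesenchyme and matrix genes 20 were detected, led by Dcn, decorin, at 12.24 ± 0.13, with Col1a1 at 9.83 ± 0.32 and Pdgfra at 9.67 ± 0.21 (SD, n = 11). Of 18 endothelial genes 14 were detected, or 77.8%, with Pecam1 at 7.14. Of 18 enteric neuron genes 7 were detected, or 38.9%, with Ret at 8.71 and Elavl4 detected on 1 array. Of 7 glial genes 2 were detected, or 28.6%, Ednrb at 10.87 and Sox10 at 6.91. The neuron and glial shares lay below the 43.4% of all genes.

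Of 18 macrophage and myeloid genes with a probe 13 were detected, led by Laptm5 at 10.29 and Csf1r, the receptor that macrophages depend on, at 9.50 ± 0.17 (SD, n = 11). Of 10 lymphocyte genes 0 were detected on all arrays, 3 on some. Of 14 erythroid genes 5 were detected, or 35.7%, the globins Hba-a1, Hbb-bs and Hbb-bt among the 827 brightest, and Alas2 and Slc4a1 at 7.26 and 7.15. The probes for 7 were detected on no array, among them the embryonic globins Hba-x, Hbb-y and Hbb-bh1 and the red cell transcription factor Gata1. The plot of gene lists gives all 41 groups beside the share over all genes.

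**Figure D1:**
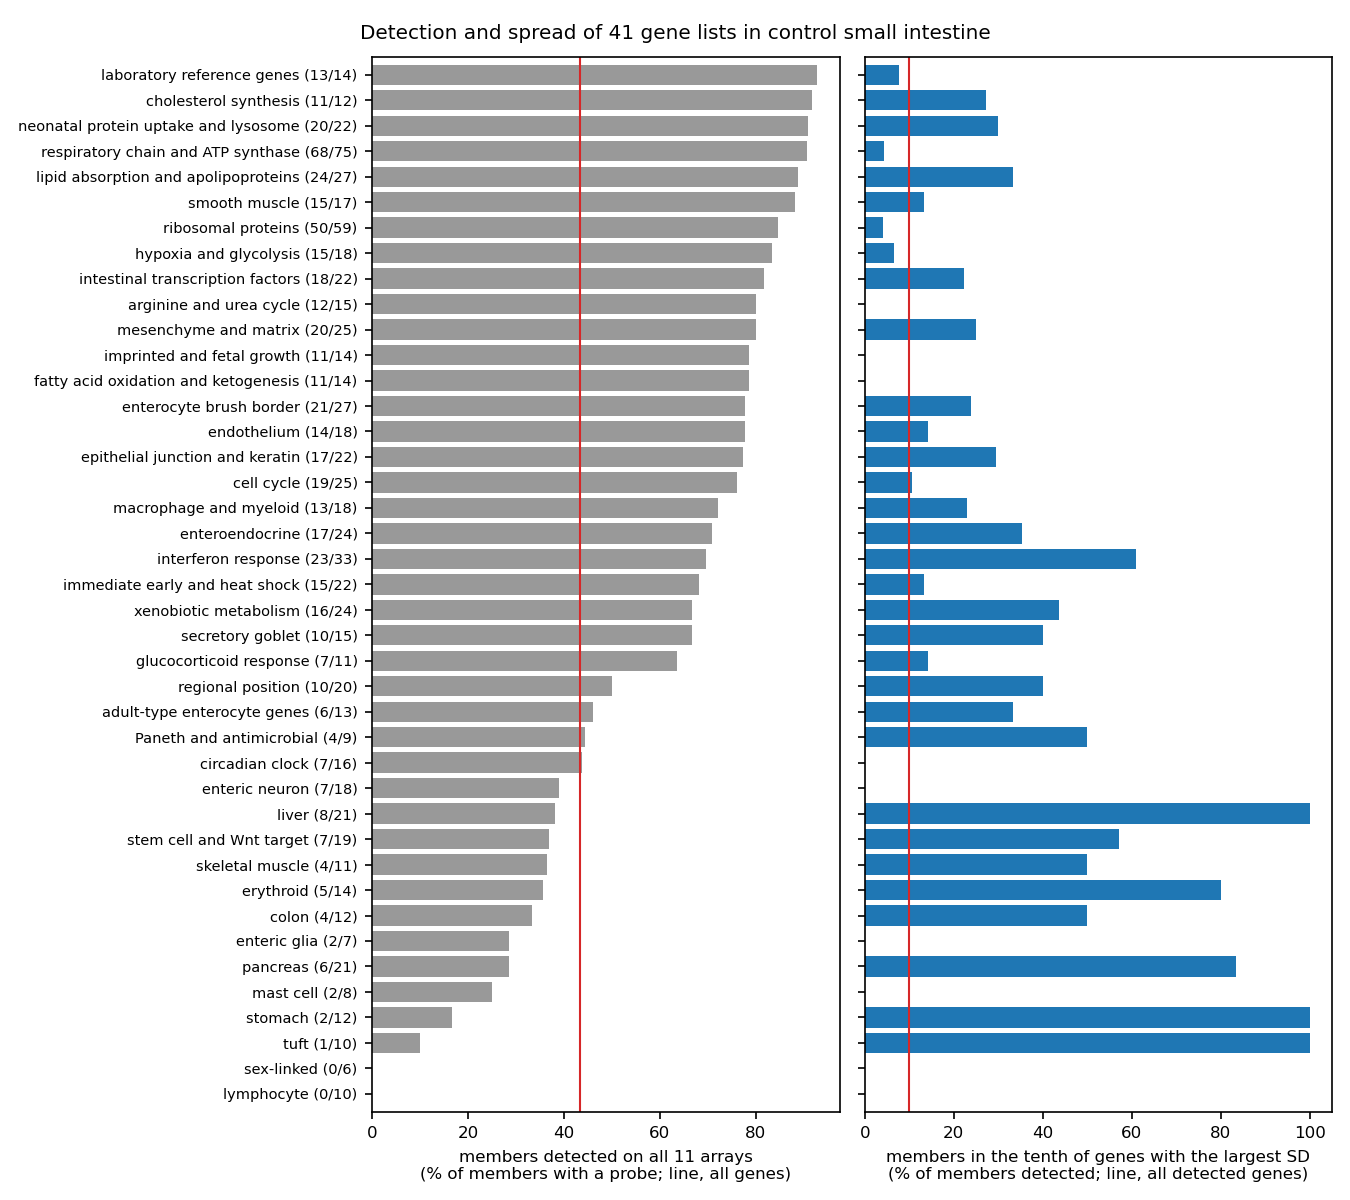
Bars give, for 41 gene lists, the percentage of members with a probe that were detected on all 11 control arrays (left) and the percentage of detected members among the 827 genes with the largest SD (right), with detected members over members with a probe in brackets. Red lines mark 43.4% and 10.0%, the shares over all genes. Most of the lists exceed each line, among them the lysosomal, respiratory and smooth muscle lists on the left. On the right the lists above the line include liver, pancreas, stem cell, colon, goblet and lipid absorption, and stomach with only 2 detected members.

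The remaining groups cover housekeeping, metabolism and responses. Of 59 ribosomal protein genes 50 were detected, 43 of them among the 827 brightest, and of 75 respiratory chain and ATP synthase genes 68 were detected, 49 among the 827 brightest. Of 14 laboratory reference genes 13 were detected and 9 were among the 827 brightest. Of 18 genes of hypoxia and glycolysis 15 were detected, of 12 of cholesterol synthesis 11, of 14 of fatty acid oxidation and ketogenesis 11, and of 14 imprinted and fetal growth genes 11. Of 24 xenobiotic metabolism genes 16 were detected, of 22 immediate early and heat shock genes 15, and of 11 glucocorticoid response genes 7. The last 7 included the metallothionein Mt1 at 14.31. Of 16 circadian clock genes 7 were detected, or 43.8%, close to the 43.4% of all genes. Of 8 mast cell genes 2 were detected, or 25%. Of 11 skeletal muscle genes 4 were detected, or 36.4%, and of 12 colon genes 4, or 33.3%. The mast cell, skeletal muscle and colon shares lay below that of all genes. Of 22 epithelial junction and keratin genes 17 were detected, led by Lgals4 at 13.83 and Krt8 at 12.66. Of 20 genes of regional position 10 were detected.

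Most detected genes differed little between embryos. The SD of a gene was 0.184 at the median, 0.108 at the 10th percentile and 0.333 at the 90th, and the median range from lowest to highest array was 1.51-fold. An SD of at least 0.5 was reached by 229 genes, or 2.77%, and an SD of at least 1 by 22. The count of genes with an SD of at least 0.5 was 137 without replicates 5, 6, 8, 10 and 11, 118 with no background correction, 131 with a larger offset, 345 with the deposited processed values and 374 where detection on 6 arrays sufficed. The range reached 4-fold in 84 genes and 16-fold in 9. Dimmer genes spread more, with a median SD of 0.210 in the dimmest of 4 equal classes of brightness and 0.152 in the brightest.

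**Figure D2:**
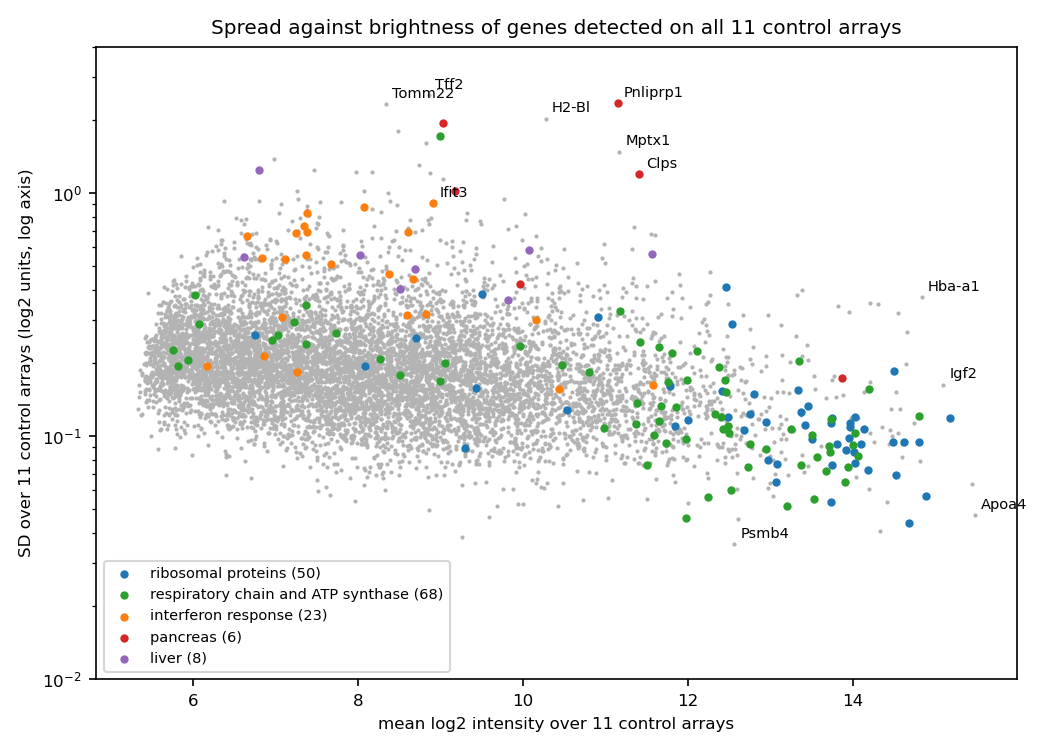
Each point is 1 of the 8273 genes detected on all 11 control arrays, with its mean log2 intensity on the horizontal axis and its SD over the arrays on a logarithmic vertical axis. Coloured points are members of 5 lists; 43 of 50 ribosomal and 49 of 68 respiratory genes are among the 827 brightest, while Tff2 at 2.53 and Pnliprp1 at 2.35 lie highest.

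Of the genes detected on all 11 arrays the one with the largest SD was Tff2, a trefoil peptide known from stomach mucous cells and Brunner's glands, with an SD of 2.53. Genes detected on some arrays reached more, such as Retnlb with an SD of 3.73, Amy2a5 with 3.14, Cela2a with 2.91 and Xist with 2.70, and are described further on. Tff2 ran from 5.46 on replicate 11 to 12.07 on replicate 8 with a median of 8.19, a range of 97.8-fold. Replicates 3, 6, 7, 8 and 10 lay at 10.50 or above and the other 6 at 8.19 or below, with nothing between. Gkn3, a stomach gastrokine gene that was not detected on all arrays, was high on the same 5 arrays, from 7.73 to 9.74, and at most 5.36 on the others. Of 12 stomach genes with a probe, 2 were detected on all arrays, Tff2 and the gastric lipase Lipf at 6.91 ± 0.39 (SD, n = 11). Lipf did not divide the arrays as Tff2 did. It lay at 6.49 on replicate 8 and 6.69 on replicate 6, where Tff2 was high, and at 7.45 on replicate 4, where Tff2 was low. The acid pump genes Atp4a and Atp4b and the mucin Muc5ac were detected on no array, and Gkn1 on 1. The part of stomach tissue in the level of Tff2 was not tested.

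Pancreatic enzyme genes gave the next large differences. Of 21 pancreas genes with a probe 6 were detected on all arrays and 14 more on some, and 5 of the 6 were among the 827 genes with the largest spread, which are 10.0% of detected genes. Pnliprp1, a pancreatic lipase relative, ran from 6.63 on replicate 4 to 13.34 on replicate 9 with a median of 12.61, a range of 104-fold. The proteases Ctrb1 and Cpa1 and the lipase cofactor Clps were low on the same arrays, with Ctrb1 from 5.77 to 11.26 and Clps from 9.81 to 13.10. Replicates 4 and 11 were lowest for Pnliprp1, Ctrb1, Clps and Cpa1, and replicates 6, 7 and 10 came next. The amylase gene Amy2a5 was undetected on replicate 4, at 4.30, and reached 14.15 on replicate 3, and Cela2a, an elastase, ran from 4.59 to 12.84. Without replicate 4, 8 pancreas members were among the 827 with the largest spread, since more of them were then detected on every array left.

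Over the 6 detected members, the mean level of the pancreas list was 9.08 on replicate 4, 9.10 on replicate 11, 10.02 to 10.32 on replicates 6, 7 and 10, and 11.41 to 12.05 on the remaining 6. Spink1, a trypsin inhibitor, did not share in this, at 13.87 ± 0.17 (SD, n = 11). Ptf1a, the transcription factor of acinar cells, was detected on 1 array. Ins2, the insulin gene of islet cells, was detected on 5 arrays, 2, 3, 5, 8 and 9, at 6.70 to 8.53, and lay at 5.03 or below on the others. Trypsin-like genes such as Try4, Try5, Gm5771 and Gm5409 have near-identical copies, so their probes may not tell them apart. Pancreas lies against the duodenum, and the part of attached pancreas in these levels was not tested.

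Of 21 liver genes with a probe 8 were detected on all arrays, and 8 of those 8 were among the 827 with the largest spread. Kng1, kininogen, ran from 5.59 on replicate 4 to 9.28 on replicate 11 with a median of 6.57, and replicates 8, 9 and 11 lay at 7.95 or above while the other 8 lay at 6.66 or below. Ahsg, fetuin, was high on the same 3 arrays, from 8.43 to 9.49, and at most 6.64 elsewhere. Without replicates 8, 9 and 11 the count was 6, and without replicates 8 to 11 it was 5. Other members followed other orders of arrays. Ttr, transthyretin, was lowest on replicate 1, at 10.61, and highest on replicate 5, at 12.36, and Afp, alpha-fetoprotein, ran from 6.91 on replicate 1 to 8.90 on replicate 6. Afp is also known from fetal gut, Alb was detected on no array, and the part of liver tissue in these levels was not tested.

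**Figure D3:**
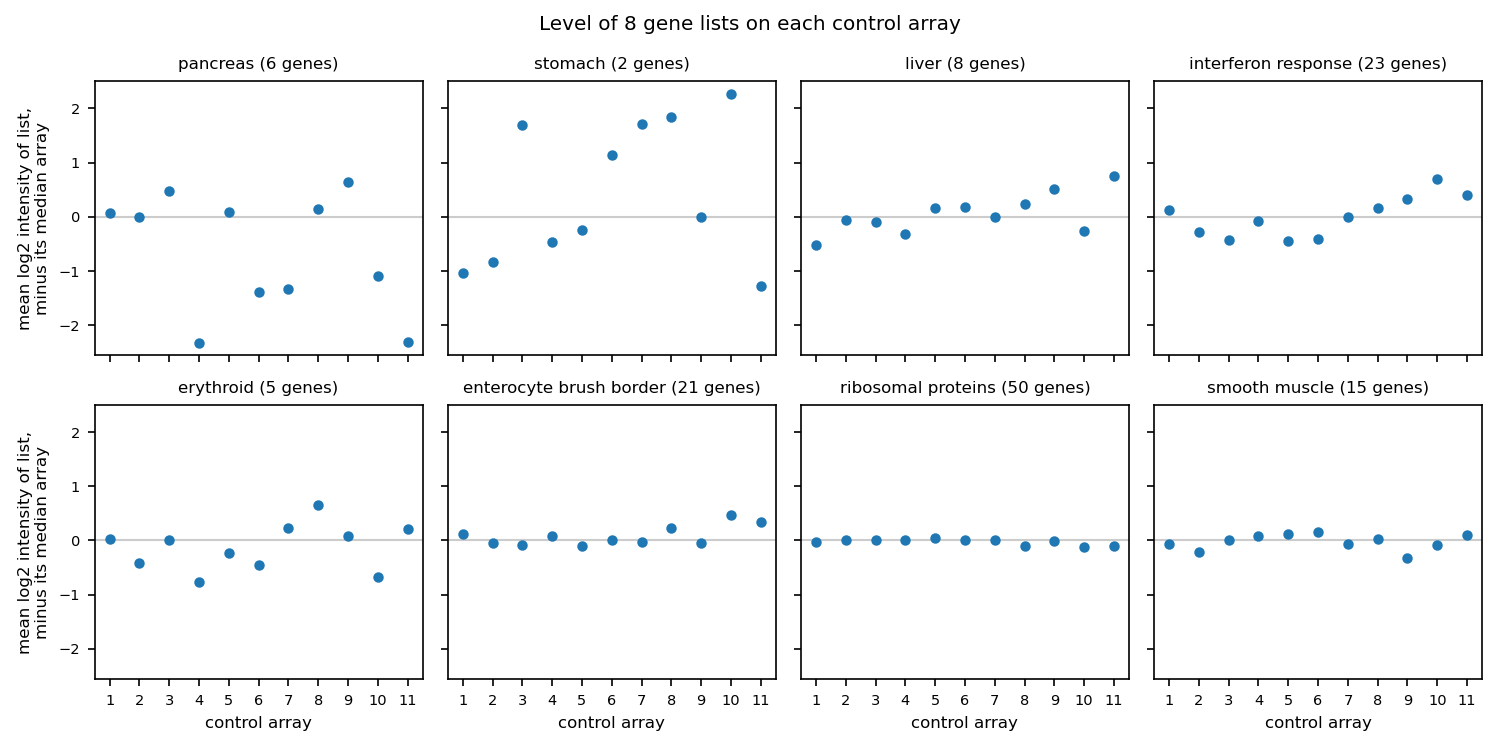
Each panel gives, for 1 gene list, the mean log2 intensity of its detected members on each of the 11 control arrays, minus that of the median array. The pancreas list drops by more than 2 on replicates 4 and 11, while ribosomal proteins lie near 0 on all arrays. The stomach list, the mean of Tff2 and Lipf only, splits the arrays differently, as Tff2 does and Lipf does not.

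**Figure D4:**
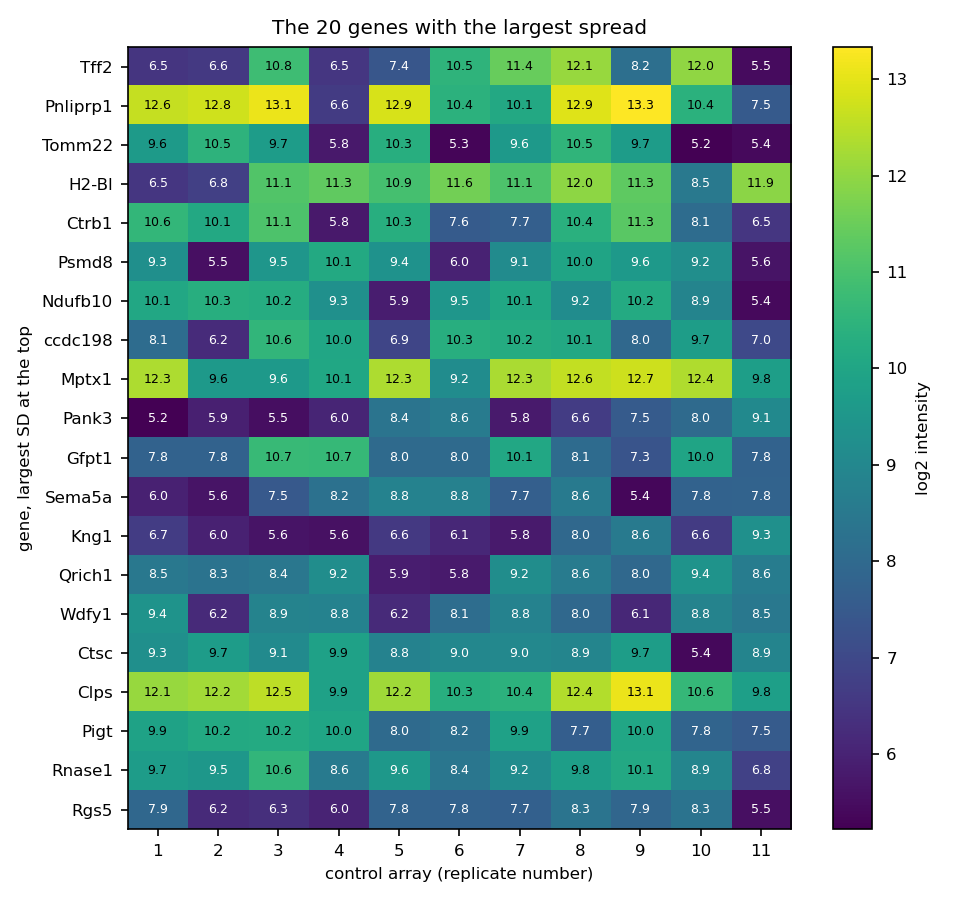
Colour and number give the log2 intensity on each control array of the 20 genes with the largest SD, ordered from the largest at the top. Pnliprp1, Ctrb1 and Clps are lowest on replicates 4 and 11, while Tomm22, Psmd8 and Ndufb10 are each low on a different set of arrays.

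Among the 41 lists, that of interferon response genes had the highest count of members with a wide spread, but not the highest share. These genes are switched on by interferon through transcription factors that bind a repeat of GAAA. Of 33 with a probe 23 were detected, 1 among the 827 brightest and 14 among the 827 with the largest spread, with a median SD of 0.51. These 14 were 60.9% of the detected members, against 10.0% of all detected genes. The share was larger in the shorter lists of liver, stomach, tuft, pancreas and erythroid genes, such as 83.3% for pancreas and 80% for erythroid. Ifit3 ran from 7.92 on replicate 3 to 10.67 on replicate 10 with a median of 8.81, a range of 6.73-fold. Rsad2, viperin, ran from 6.90 on replicate 2 to 9.35 on replicate 10 with a median of 8.28. Oasl1 ran from 6.16 on replicate 3 to 8.72 on replicate 10, and Isg15, a ubiquitin-like modifier, from 6.39 on replicate 6 to 8.42 on replicate 10.

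Replicate 10 was the highest for all 4 of these genes. The mean level of the list was 8.71 on replicate 10 and 8.43 on replicate 11, and it was 7.57 to 7.61 on replicates 3, 5 and 6. Ifitm3, the brightest member at 11.58, had an SD of 0.16, and Irgm1, at 10.44 with an SD of 0.16 as well, was highest on replicate 6 and at 10.38 on replicate 10. The count among the 827 with the largest spread was 14 without replicates 5, 6, 8, 10 and 11, 17 without the other 6 arrays, and 14 or 15 without any single array. The macrophage list was highest on replicate 9, at 8.19, and lowest on replicate 2, at 7.85.

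The promoters of 3 of these genes are printed because these 3 were all highest on replicate 10 and hold the repeat, taken as GAAA, any 2 bases and GAAA, and searched on both strands in the 250 bases before to 50 after the gene start (RefSeq, GRCm38.p6). Capitals mark each match, in either direction, and overlapping matches run together. Positions are chr19:34583279-34583578, plus strand, for Ifit3; chr4:156200769-156201068, minus strand, for Isg15; and chr12:26456403-26456702, minus strand, for Rsad2.
Ifit3: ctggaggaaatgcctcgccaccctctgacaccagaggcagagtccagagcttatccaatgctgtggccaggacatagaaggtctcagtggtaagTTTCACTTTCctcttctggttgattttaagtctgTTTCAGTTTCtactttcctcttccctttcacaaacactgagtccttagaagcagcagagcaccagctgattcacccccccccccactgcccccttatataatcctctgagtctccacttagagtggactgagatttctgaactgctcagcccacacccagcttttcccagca
Isg15: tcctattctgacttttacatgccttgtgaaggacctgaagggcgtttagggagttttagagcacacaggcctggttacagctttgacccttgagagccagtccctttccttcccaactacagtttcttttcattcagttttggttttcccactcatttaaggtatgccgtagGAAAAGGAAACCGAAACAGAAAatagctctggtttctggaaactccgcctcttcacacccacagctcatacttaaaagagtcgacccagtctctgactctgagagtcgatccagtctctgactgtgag
Rsad2: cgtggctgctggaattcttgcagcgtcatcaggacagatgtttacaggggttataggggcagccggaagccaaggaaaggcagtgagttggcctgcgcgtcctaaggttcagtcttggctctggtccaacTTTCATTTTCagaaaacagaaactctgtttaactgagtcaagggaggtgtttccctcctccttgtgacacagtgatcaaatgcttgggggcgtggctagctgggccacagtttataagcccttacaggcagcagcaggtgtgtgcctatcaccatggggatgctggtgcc
The motif was found in 11 of the 21 detected interferon genes with a window, or 52.4%, in 3.62% of the 6748 detected genes with a window and in 3.44% of all 32851 windows. Ifit3 held 2 matches, Isg15 3 and Rsad2 1, and Oasl1 was not among the 11. Ifitm3 and Irgm1, each with an SD of 0.16, were among the 11, and Irgm1 was highest on replicate 6. The motifs were chosen after the groups had been seen, and a match is a description of letters and not of binding.

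Several genes had a separate low and high level among the 11 embryos. Over 10167 genes detected on at least 2 arrays, 51 had a gap of at least 1.5 on the log2 scale with at least 2 arrays on each side, and in 40 of them the gap was wider than the range on either side. Tomm22, a receptor of the mitochondrial outer membrane, lay at 5.24 to 5.77 on replicates 4, 6, 10 and 11 and at 9.59 to 10.54 on the other 7. Psmd8, a subunit of the proteasome, lay at 5.55 to 5.99 on replicates 2, 6 and 11 and at 9.14 to 10.15 on the other 8. Qrich1 lay at 5.81 to 5.87 on replicates 5 and 6 and at 7.97 to 9.40 on the other 9. The sets of arrays at the low level differed between these 3 genes, although each held replicate 6.

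Some splits were shared. Gfpt1, the first enzyme of hexosamine synthesis, and Adamts9, a secreted protease, both on chromosome 6, were high on replicates 3, 4, 7 and 10. For Adamts9 the levels were 8.23 to 9.06 on those and 4.32 to 4.61 on the other 7. The genes ccdc198 and Pnp2, both on chromosome 14, were low on replicates 1, 2, 5, 9 and 11. Ndufb10, a subunit of respiratory complex I, and H2-Ea, an MHC class II chain, both on chromosome 17, split off the same 2 replicates, 5 and 11, in opposite directions. Ndufb10 was at 5.44 and 5.88 there and at 8.89 to 10.30 elsewhere, and H2-Ea at 6.38 and 6.48 there and at 4.47 or below elsewhere. A second detected probe of Ndufb10 went the opposite way over the arrays, with a correlation of -0.75 to the first, so this split belongs to 1 probe. Other shared splits joined genes on different chromosomes. Qrich1, on chromosome 9, and Mcoln3, on chromosome 3, were low on replicates 5 and 6. Pigt, on chromosome 2, and Mpst, on chromosome 15, were low on replicates 5, 6, 8, 10 and 11. Serpina1e, on chromosome 12, and Ttc27, on chromosome 17, were low on replicates 8 and 10. Tff2 and Gkn3, described above, lie on chromosomes 17 and 6. In all, the 51 genes had 34 distinct splits, and 25 genes shared a split in the same direction with another. Of these 25, 10 were pancreatic enzyme genes or their near copies that were low on replicates 4, 6, 7, 10 and 11. The pancreatic genes Pnliprp1, Amy2a5 and Cela2a were also among the 25, with a shared low level on replicates 4 and 11. The strain is labelled as mixed, and neither the alleles under the probes nor any other source of these levels was tested.

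Retnlb, a peptide secreted by goblet cells, had the widest gap of these 51 genes, 6.61 on the log2 scale. It lay at 11.24 or above on replicates 5, 8, 9, 10 and 11 and was undetected on the other 6, at 4.40 to 4.62. The goblet markers Tff3 and Muc2 did not split this way, with Muc2 from 10.15 on replicate 7 to 12.03 on replicate 11. Mptx1, a mucosal pentraxin, was detected on all arrays and lay at 9.17 to 10.05 on replicates 2, 3, 4, 6 and 11 and at 12.29 to 12.73 on the other 6. H2-Bl, an MHC class I gene with close relatives, lay at 6.49 to 8.50 on replicates 1, 2 and 10 and at 10.95 to 11.96 on the other 8.

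Xist and the Y-linked gene Eif2s3y divided the arrays in a complementary way. Xist, the RNA of the inactive X chromosome, lay at 8.69 to 9.96 on replicates 1 to 6 and at 4.26 to 4.71 on replicates 7 to 11. Eif2s3y, on the Y chromosome, lay at 7.65 to 7.95 on replicates 7 to 11 and at 4.21 to 4.43 on replicates 1 to 6. No array had both of these or neither. Kdm5d, also on the Y chromosome, lay at 5.15 to 5.99 on replicates 7 to 11 and at 4.38 or below on the others. For Uty, a further Y-linked gene with 4 probes, the probe detected on the most arrays did not divide them. That probe was detected on 9 arrays, all but replicates 2 and 3, and lay close to the detection limit, at 4.84 to 5.59 over all 11. What it reads was not tested. The probes for Zfy1 and Usp9y were detected on no array, and the platform annotation named no probe for Ddx3y alone. The division of Xist and Eif2s3y differs from that of the first principal component, since replicates 5 and 6 lie with 8, 10 and 11 on that axis.

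**Figure D5:**
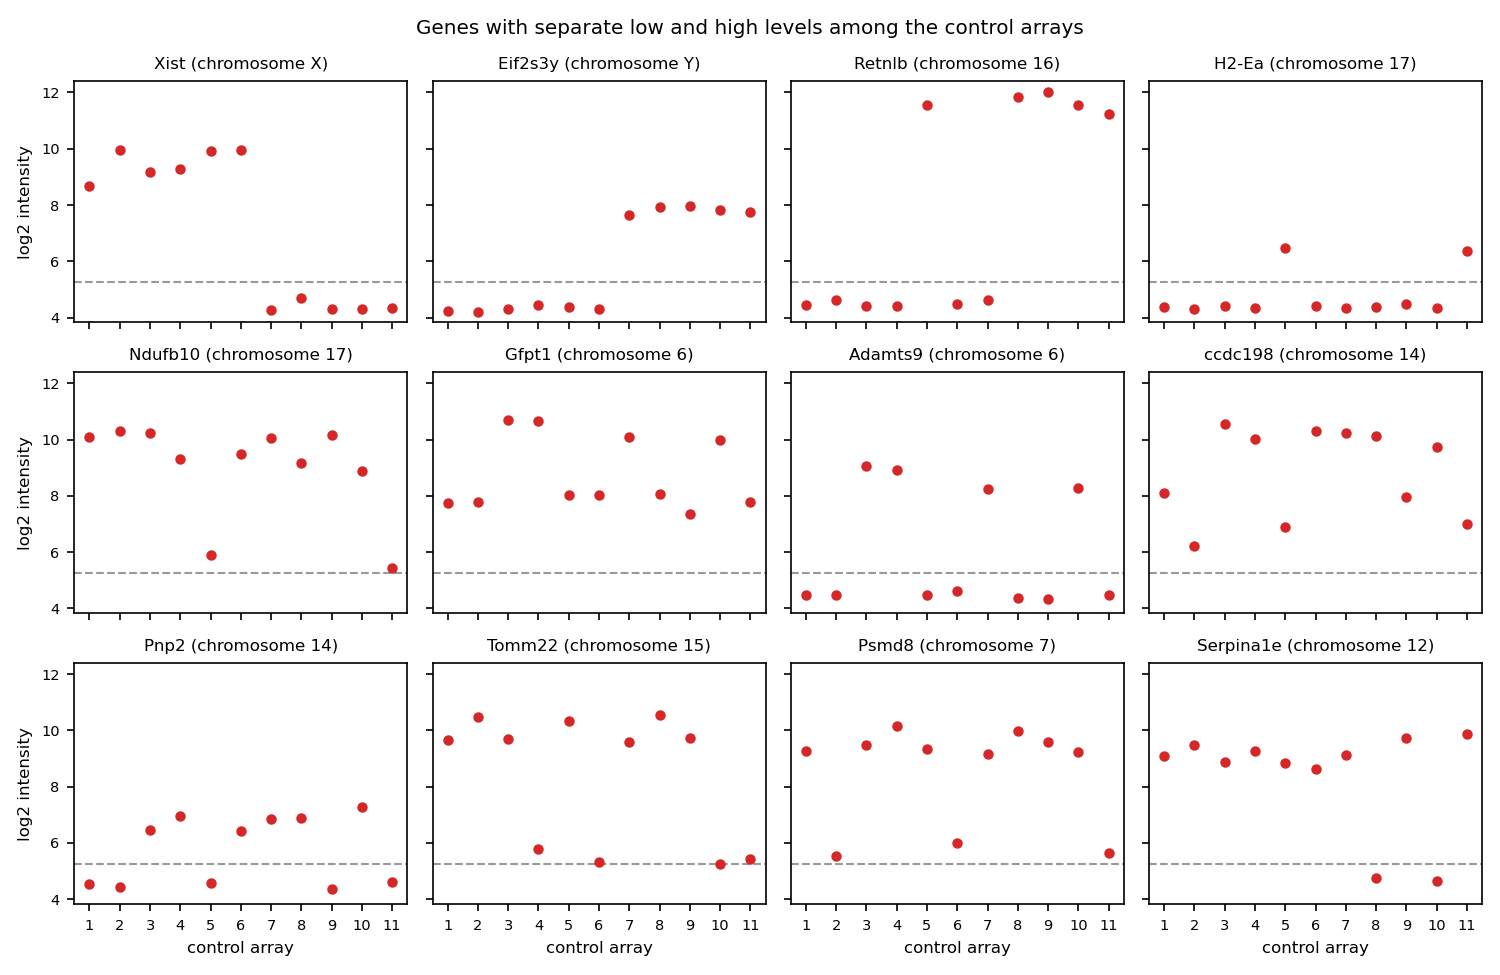
Each panel gives the log2 intensity of 1 gene on each of the 11 control arrays, and the dashed line marks 5.26, the level at which the dimmest detected probe of an array lay on the array where it was brightest. Xist and Eif2s3y divide the arrays between replicates 6 and 7, whereas Retnlb, Ndufb10, Gfpt1, ccdc198, Tomm22, Psmd8 and Serpina1e each split other sets of arrays.

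Of the 21 detected brush border genes, 5 were among the 827 with the largest spread, and the count was 2 without replicate 10 and 2 without replicates 5, 6, 8, 10 and 11. The mean level of that list was highest on replicate 10, at 10.65, then on replicate 11, at 10.52, and on replicate 8, at 10.41, and lay at 10.08 to 10.30 on the other 8. Lct ran from 11.82 on replicate 7 to 13.04 on replicate 10 with a median of 12.22, a range of 2.32-fold. Cdx2 lay at 10.32 to 10.65 on replicates 5, 6, 8, 10 and 11 and at 11.25 to 11.57 on the other 6, the same division as the first principal component. Fabp6, the ileal bile acid binding protein, ran from 7.74 on replicate 8 to 9.92 on replicate 11 with a median of 8.93. Reg3b ran from 7.50 on replicate 10 to 10.77 on replicate 1, a range of 9.63-fold.

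The erythroid list had 4 of 5 detected members among the 827 with the largest spread. Its mean level was 12.37 on replicate 8 and 10.97 on replicate 4. Slc4a1, the anion exchanger of red cells, ran from 6.13 on replicate 4 to 8.21 on replicate 9 with a median of 7.00. Without replicate 8 the count was 2. Of the 16 detected xenobiotic genes 7 were among these 827, including Gsta1 with an SD of 0.69 and Gsta2 with one of 0.66, and probes of Gsta genes may read relatives. Without replicate 1 that count was 4, and without replicates 1, 2, 3, 4, 7 and 9 it was 3.

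Of the genes detected on all arrays Psmb4, a subunit of the proteasome core, had the smallest SD, 0.036, and ran from 12.53 to 12.64 with a median of 12.56, a range of 1.08-fold. Among the 20 smallest were also Sesn1, Atpif1, the inhibitor of ATP synthase, Rpl38 and Rps19 of the ribosome, Suclg1 of the citric acid cycle, Ndufs8, Ndufs6 and Cox6b1 of the respiratory chain, Mrpl49 of the mitochondrial ribosome, Eif2b4, a translation initiation factor, Polr2j of RNA polymerase II, the sulfotransferase Tpst2, the adaptor Sh2b1 and Apoa4. Over the 22 alternatives that did not leave out several arrays together, Eif2b4 was the only one of the 20 that stayed in this set. The SDs of the 20 lay between 0.036 and 0.055. Of the 50 detected ribosomal protein genes 22 were among the 827 with the smallest spread and 2 among those with the largest, with a median SD of 0.11. The latter count was 0 without replicates 5, 6, 8, 10 and 11 and 5 without the other 6. Of the 68 respiratory chain genes 26 were among the 827 with the smallest spread and 3 among those with the largest, with a median SD of 0.13. The latter count was 1 without replicates 8 to 11, 2 without replicates 5, 6, 8, 10 and 11 and 5 without the other 6.

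Common reference genes were not equally steady. Of the 13 detected, 5 were among the 827 with the smallest spread, among them Eef1a1 at 14.20 ± 0.06, Gapdh at 13.06 ± 0.07, Ppia at 14.45 ± 0.09 and Ywhaz at 11.60 ± 0.09 (SD, n = 11). Actb, at 14.07, had an SD of 0.12. B2m, part of MHC class I, had an SD of 0.29 and ran from 12.65 on replicate 5 to 13.59 on replicate 11. Tfrc, the transferrin receptor, had an SD of 0.50 and lay among the 827 with the largest spread.

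The promoters of the brightest gene of all and of the brightest ribosomal gene are printed to show the motifs counted in their groups, in windows of the same kind. Capitals mark CAAAGTTCA, an element of the nuclear receptor HNF4, in Apoa4 (chr9:46240594-46240893, plus strand) and CCGGAAG, an element of Ets factors, in Rpl41 (chr10:128549119-128549418, minus strand).
Apoa4: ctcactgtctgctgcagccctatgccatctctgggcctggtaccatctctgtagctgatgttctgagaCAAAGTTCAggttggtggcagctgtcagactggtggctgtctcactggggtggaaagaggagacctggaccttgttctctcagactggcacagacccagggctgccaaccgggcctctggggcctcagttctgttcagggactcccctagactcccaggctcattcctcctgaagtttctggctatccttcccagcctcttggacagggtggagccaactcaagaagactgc
Rpl41: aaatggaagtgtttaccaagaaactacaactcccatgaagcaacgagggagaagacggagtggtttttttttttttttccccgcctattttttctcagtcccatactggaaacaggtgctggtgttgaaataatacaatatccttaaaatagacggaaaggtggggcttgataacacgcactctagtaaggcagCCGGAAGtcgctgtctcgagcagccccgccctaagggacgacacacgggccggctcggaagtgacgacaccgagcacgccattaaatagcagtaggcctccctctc
CAAAGTTCA was found in 3 of 19 detected lipid genes with a window, Apoa4, Apobec1 and Rbp2, in 0.445% of all detected genes and in 0.39% of all windows. The similar CAAAGTCCA, also searched, was found in 0 of those 19, in 0.578% of all detected genes and in 0.475% of all windows. CCGGAAG was found in 19 of 41 detected ribosomal protein genes with a window, or 46.3%, in 20.6% of all detected genes and in 8.86% of all windows. It was found in 26.7% of the genes with the smallest spread and in 12.5% of those with the largest, over the members of each 827 that have a window. Of the other motifs searched, TATAAA was found in 8 of 21 interferon genes and in 7 of 19 lipid genes. It was found in 9.26% of all detected genes and in 13.6% of all windows. GATAA was found in 18 of 41 ribosomal, 9 of 19 lipid and 7 of 21 interferon genes. Its share was 19.7% of all detected genes and 25.4% of all windows.

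Of the detected genes 2384 had a further probe detected on all arrays, and the correlation of the probes over the 11 arrays, which share their RNA and hybridisation, had a median of 0.56. Among the 827 genes with the largest spread the median was 0.84 over 198 genes, and among the 827 with the smallest 0.34 over 315. Both sets were ranked by the SD of the first probe on the same arrays, so the selection itself favours such a difference. The correlation was under 0.3 for 43 of the 198, or 21.7%, for 138 of the 315, or 43.8%, and for 30.5% of all 2384. For Clps the second probe had an SD of 1.10 and was also lowest on replicates 4 and 11. For Oasl1 it had an SD of 0.82 and was highest on replicate 10, and for Pigt, which lay at 7.54 to 8.19 on replicates 5, 6, 8, 10 and 11 and at 9.86 to 10.17 on the other 6, it had an SD of 0.88. For Ndufb10 the probes went opposite ways, and the second was highest on replicate 5, at 10.14, where the first was at 5.88.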

How the data were processed

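Small intestine RNA of 11 control embryos was hybridised to 1 Illumina WG6_V2 array each. The deposited table holds 1 linear intensity and 1 detection p-value per probe and array, per the file headers, with no background subtraction. GenomeStudio 2009.2 is given in the submitters' processing notes. A second deposited table of intensity values was a straight line of the first for each array, with a largest residual of 0.011.

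The intensities of the 11 control arrays were processed with neqc of limma 3.58.1 under R 4.3.3, with the background estimated from the detection p-values, an offset of 16, quantile normalisation and log2 values. The offset understates differences of dim probes. The platform annotation named 1 gene for 34885 probes, several for 18 and none for 10378, and 34807 probes were matched to RefSeq (GRCm38). A gene was represented by its detected probe with the highest mean. Promoters came from RefSeq (GRCm38.p6). The number of arrays limits the precision, and where nothing says that embryos came from separate litters, the spread is only that between these samples.

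The arrays and the 41 gene lists were chosen with earlier results of these data known. Genes named were the 20 brightest, the 20 with the largest and the 20 with the smallest SD, the 10 steadiest of the brighter ones, from each list up to 4 bright and 2 variable members and undetected ones, a set of markers, and the 10 genes of largest range detected on 3 to 10 arrays; other genes were chosen after their values were seen. The ranking of SDs and the detection count were tested on simulated data. Alternatives were the detection threshold, the number of arrays on which a probe is detected, the scaling, the background, the offset, the deposited processed values, the normalisation with all 21 arrays, the measure of spread, the probe, and arrays left out singly or together. Leaving out replicates 5, 6, 8, 10 and 11, or the other 6, was chosen after seeing the data.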

Additional observations from a re-analysis of the deposited data

How the results depend on the processing

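No paired analysis was possible because no groups are compared. The number of genes with an SD of at least 0.5, 229 as reported, was 374 where a probe had to be detected on at least 6 of 11 arrays, 118 with no background correction, 131 with an offset of 50, 345 with the deposited processed values and 137 without replicates 5, 6, 8, 10 and 11. Of the 20 genes with the largest spread, 5 were shared with the list under detection on at least 6 arrays, 9 under the median absolute deviation, 13 without replicates 5, 6, 8, 10 and 11 and 12 without replicates 1, 2, 3, 4, 7 and 9, and 17 to 19 when each array was left out in turn. Of the 20 with the smallest spread, 7 were shared under median scaling, 13 without background correction, 3 with the processed values, 2 under the median absolute deviation, 10 with the SD divided by that of genes of like brightness, 11 with the mean of probes, 7 without replicates 8, 9 and 11, 2 without replicates 8 to 11, 3 without replicates 5, 6, 8, 10 and 11 and 0 without replicates 1, 2, 3, 4, 7 and 9, and 13 to 17 when each array was left out in turn. The detection filter and the arrays left out change which genes are ranked, and the other causes were not tested. Over the 22 alternatives other than those that leave out several arrays together, 15 of the 20 brightest genes stayed among the brightest, Ctrb1, Pnliprp1, Tff2 and Tomm22 stayed among the largest spreads, and Eif2b4 alone stayed among the smallest.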
